A study of Homo sapiens with 9 samples.

Results

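The MYC and MAX network is a family of DNA-binding proteins with basic helix-loop-helix leucine zipper domains, and here it was described at the level of RNA in MDA-MB-231. This is a human breast cancer line of the triple-negative class, which lacks the oestrogen and progesterone receptors and HER2 amplification. Of 9 genes named for the network (MYC, MAX, MXD1, MXD3, MXD4, MXI1, MNT, MLX and MLXIP), 8 had a row under their symbol among 46846 features and were analysed in all 9 libraries; MLXIP was not analysed here. All 8 were among the 16846 features tested, which had a mean normalised read count of at least 10. The libraries fell into 3 groups of 3, all from the same cell line grown in serum-supplemented medium and treated a day after seeding. One group received Pladienolide B (10 nM, 6 h), which binds the SF3b complex of the spliceosome. One received Indisulam (3.3 µM, 12 h), a sulfonamide that directs the splicing factor RBM39 to ubiquitin-dependent degradation, and the third received the solvent DMSO, labelled 12 h. Pladienolide B was thus set against cells of another labelled time, both with DMSO and with Indisulam. The effects of drug and time cannot be told apart in these comparisons. A single cell line was used. The labels number the libraries within a group as replicas without naming separate cultures; p-values therefore cover the spread among libraries, which may be technical.

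MYC is a transcription factor that activates genes of growth, ribosome production and metabolism, and it binds DNA only as a dimer with MAX. The same partner, MAX, also pairs with the MXD proteins, MXI1 and MNT, which recruit SIN3 corepressors to the same E-box sequence (CACGTG) and oppose MYC. MLX forms a parallel branch: it pairs with MLXIP (MondoA) or MLXIPL (ChREBP), which respond to glucose, and also with MXD1, MXD4 and MNT. MYC mRNA and protein are both short-lived, and in triple-negative breast cancer MYC is frequently amplified or overexpressed.

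Because the network acts through CACGTG, the RefSeq promoter windows of its own genes (build GRCh38.p14, 250 bases before to 50 bases after each start) were searched for these letters, which read the same on both strands. Windows were at hand for 8 of the 9 genes, MYC being the gene without one, and 3 of them (MLX, MNT and MXD4) held the motif, beside 8.77% of 27305 genes with a window. By window, 3 of 11 held it, beside 7.26% of 35116. Printed below is the stretch of each of these 3 windows that lies upstream of the gene in both RefSeq and GENCODE, 5′ to 3′ on the gene's own strand, with the motif in capitals: chr17:42566850-42567067 (plus strand) for MLX, chr17:2401119-2401310 (minus strand) for MNT and chr4:2262295-2262359 (minus strand) for MXD4.
MLX: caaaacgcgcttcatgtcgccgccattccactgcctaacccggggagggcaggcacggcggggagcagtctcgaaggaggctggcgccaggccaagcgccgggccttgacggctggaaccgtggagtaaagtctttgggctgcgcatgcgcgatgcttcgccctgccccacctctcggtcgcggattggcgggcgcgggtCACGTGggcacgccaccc
MNT: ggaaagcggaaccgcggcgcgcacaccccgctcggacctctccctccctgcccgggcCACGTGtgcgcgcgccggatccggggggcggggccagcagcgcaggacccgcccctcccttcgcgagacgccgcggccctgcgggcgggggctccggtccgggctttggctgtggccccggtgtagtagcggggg
MXD4: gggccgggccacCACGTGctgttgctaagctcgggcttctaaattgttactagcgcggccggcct
The motif began 50 bases before the RefSeq start of MLX, 193 bases before that of MNT and 238 bases before that of MXD4. A match describes the letters only; no binding was measured. Of the genes that hold it, MLX and MNT were called lower with Pladienolide B and MXD4 was not called, as given below.

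The libraries held 59312100 to 83910831 reads. After the authors' normalisation by 1 size factor per library, totals averaged 84689853 ± 2607968 with Pladienolide B, 63349449 ± 409132 with Indisulam and 61016460 ± 574381 with DMSO (SD, n = 3 each). The share of mitochondrial reads was 13.8 ± 0.151%, 9.93 ± 0.189% and 8.72 ± 0.437% in the same groups. Scaling every library to 1 total instead moved the median log2 fold change of all genes by -0.47 between Pladienolide B and DMSO and by -0.41 between Pladienolide B and Indisulam, so members whose direction depends on it are named where they occur. Of 8 genes fixed as markers of this mesenchymal line, 7 had a mean of at least 100 normalised reads, the exception being SPARC at 40.6. Of 9 receptor and luminal genes, 5 had a mean of at least 100: KRT8 at 56680, KRT18 at 45060, ERBB2 at 5587, EPCAM at 1236 and GATA3 at 810, the last with 1529 with Pladienolide B, 510 with Indisulam and 392 with DMSO. CDH1 was at 81.9, FOXA1 at 2.23, and ESR1 and PGR were below 1 normalised read. Of 6 markers of other cells, 1 was above 100 (COL1A1 at 322), PECAM1 was at 53.0 and PTPRC at 10.8, and 3 were under 10, with HBB at 0 in every group. The part of other cell types in the results below was not tested.

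With Pladienolide B against DMSO, 6 of the 8 network genes passed the test (limma on log2(value + 1), Benjamini-Hochberg adjusted p under 0.05 over all genes). MYC and MXD1 rose, and MAX, MXD3, MNT and MLX fell; MXD4 and MXI1 did not pass. All 6 were also free of overlap between the 3 treated and the 3 DMSO libraries, as were 71.8% of all genes tested. Most genes changed in this comparison: 69.8% of all genes tested were called, 34.3% higher and 35.5% lower, so a share of 75.0% among 8 genes lies near the background. The median log2 fold change of the 8 genes was -0.65, beside -0.01 over all genes tested, and their median absolute change was 1.28 beside 0.63. With Indisulam against DMSO, MYC and MAX rose and MXD3 and MLX fell, while MXD1, MXD4, MXI1 and MNT did not pass. There the background was 26.9% of genes called, 14.5% higher and 12.4% lower, and the median change was 0.09 beside 0.05 over all genes. MXI1 was free of overlap as well, which makes 5 of 8 members beside 48.4% of all genes.

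**Figure D1:**
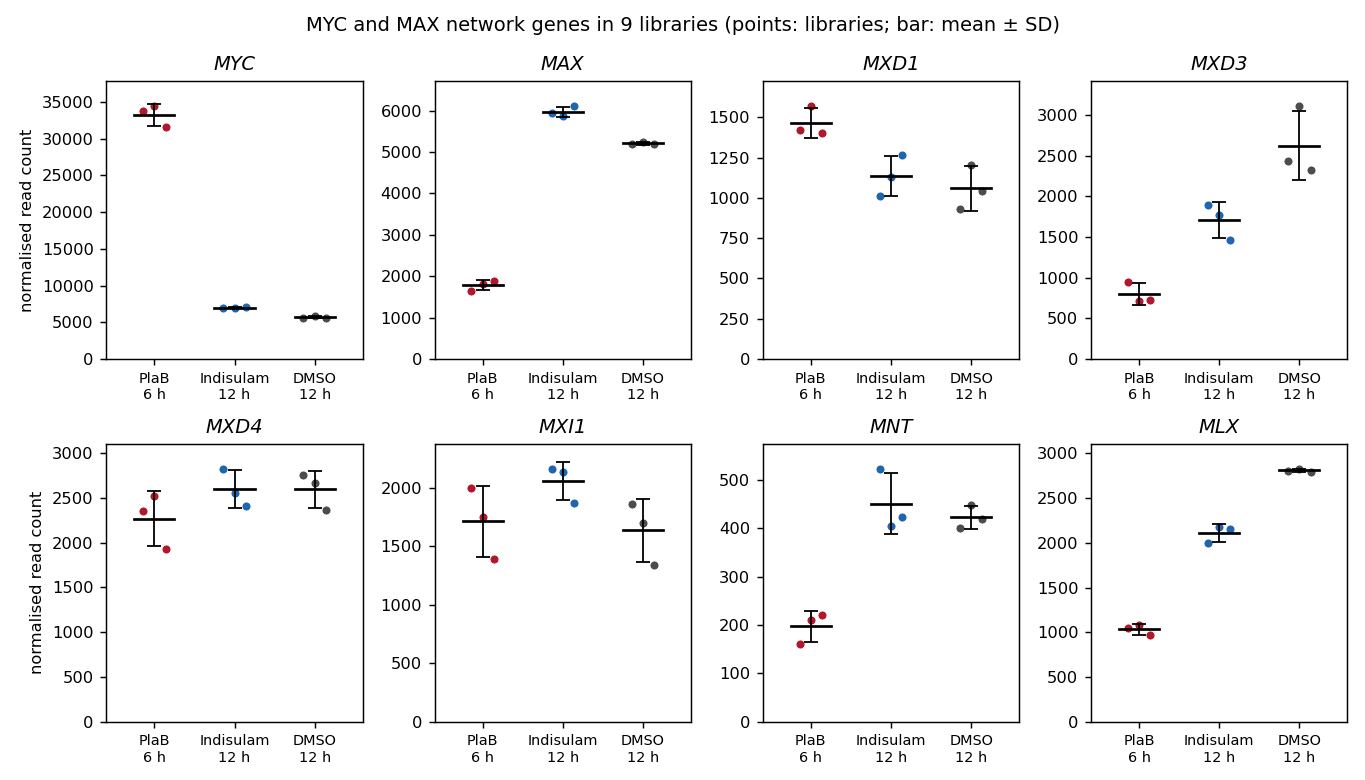
Normalised read count (y axis, from 0) of the 8 network genes in each library, with Pladienolide B (PlaB) left, Indisulam in the middle and DMSO right; points are libraries and bars give the mean ± SD of 3. MYC stands at 31557 to 34385 in the Pladienolide B libraries, above all others, while MAX, MXD3, MNT and MLX are lowest in the same libraries.

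MYC (chr8:127735434-127742951 in hg38, plus strand) is the activating partner. It had 33704, 34385 and 31557 normalised reads in the Pladienolide B libraries, 6970, 6910 and 7048 in the Indisulam libraries, and 5639, 5923 and 5628 in the DMSO libraries. The Pladienolide B libraries lay far above all others and the Indisulam libraries lay above all DMSO libraries, with no overlap between any pair of groups. Its mean was 5.80-fold higher with Pladienolide B than with DMSO, with a log2 fold change of 2.53 (standard error 0.05, 95% interval 2.42 to 2.65, adjusted p = 3.756e-12). That change was larger than the change of 97.8% of all genes tested. With Indisulam MYC was 1.22-fold higher than with DMSO, at a log2 fold change of 0.28 (95% interval 0.17 to 0.40, adjusted p = 0.00147). The direct comparison of Pladienolide B with Indisulam gave 2.25 (95% interval 2.14 to 2.36, adjusted p = 1.056e-11). Under the 20 alternatives tried, the log2 change with Pladienolide B ranged from 2.06 to 2.57 and that with Indisulam from 0.23 to 0.31.

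MAX (chr14:65006101-65102695, minus strand), the obligate partner of MYC and of the repressors, moved the other way with Pladienolide B. It had 1647, 1822 and 1877 normalised reads with Pladienolide B, 5935, 5869 and 6104 with Indisulam, and 5202, 5248 and 5182 with DMSO. The Pladienolide B libraries lay far below the rest, and the Indisulam libraries lay just above all DMSO libraries. The mean was 2.92-fold lower with Pladienolide B than with DMSO, a log2 fold change of -1.55 (95% interval -1.68 to -1.41, adjusted p = 1.594e-10), and the change against Indisulam was -1.75 (adjusted p = 7.284e-11). With Indisulam MAX was 0.20 higher than with DMSO (95% interval 0.06 to 0.33, adjusted p = 0.0341). That small rise was no longer called with either TMM scaling (adjusted p = 0.0934) or 1 total per library (adjusted p = 0.124). Leaving out any 1 of the 6 Indisulam and DMSO libraries also ended the call, with adjusted p-values of 0.0726 to 0.117.

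The MXD genes and MXI1 encode the repressors that compete with MYC for MAX, and they did not move together. MXD1, a gene associated with differentiation, had 1424, 1568 and 1402 normalised reads with Pladienolide B, 1013, 1130 and 1264 with Indisulam, and 932, 1206 and 1040 with DMSO. Only the Pladienolide B libraries stood apart. Its log2 fold change was 0.47 with Pladienolide B against DMSO (95% interval 0.24 to 0.71, adjusted p = 0.00138) and 0.37 against Indisulam (95% interval 0.14 to 0.60, adjusted p = 0.00724). The rise depended on the scaling: with 1 total per library it was 0.00 against DMSO (adjusted p = 0.995) and -0.05 against Indisulam (adjusted p = 0.7). With Indisulam against DMSO the change was 0.10 (95% interval -0.13 to 0.33, adjusted p = 0.524).

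MXD3, the member of this group associated with proliferating cells, fell with both drugs. It had 950, 709 and 726 normalised reads with Pladienolide B, 1894, 1770 and 1463 with Indisulam, and 2438, 3109 and 2322 with DMSO, so that the 3 groups formed 3 separate ranges. The mean was 3.30-fold lower with Pladienolide B than with DMSO (log2 -1.72, 95% interval -2.02 to -1.43, adjusted p = 7.516e-08). With Indisulam it was 1.53-fold lower than with DMSO (log2 -0.61, 95% interval -0.91 to -0.32, adjusted p = 0.00485), and between the drugs the log2 change was -1.11 (adjusted p = 5.955e-06).

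MXD4 averaged 2268 ± 307 normalised reads with Pladienolide B, 2596 ± 209 with Indisulam and 2593 ± 205 with DMSO (SD, n = 3 each), and the ranges of all 3 groups overlapped. Its log2 fold change was -0.20 with Pladienolide B (95% interval -0.42 to 0.02, adjusted p = 0.0935) and 0.00 with Indisulam (95% interval -0.21 to 0.22, adjusted p = 0.992). The value with Pladienolide B was called lower in some other settings, at -0.28 with TMM scaling (adjusted p = 0.0235), -0.67 with 1 total per library (adjusted p = 2.846e-05) and -0.28 on leaving out Pladienolide B replicate 2 (adjusted p = 0.0253).

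MXI1, also known as MXD2, had 1997, 1755 and 1390 normalised reads with Pladienolide B, 2163, 2140 and 1875 with Indisulam, and 1867, 1704 and 1340 with DMSO. The Indisulam libraries lay above all DMSO libraries, though the lowest of them at 1874.6 was barely above the highest DMSO library at 1867.4. The log2 fold change with Indisulam was 0.34 (95% interval 0.05 to 0.63) and missed the threshold over all genes (adjusted p = 0.0791). It passed with DESeq2 on whole reads (0.33, adjusted p = 0.0498), with the fit on the 6 libraries compared (adjusted p = 0.023), on leaving out Pladienolide B replicate 3 (adjusted p = 0.0366) or DMSO replicate 1 (0.44, adjusted p = 0.0479). With Pladienolide B against DMSO the change was 0.06 (95% interval -0.23 to 0.36, adjusted p = 0.689), and its sign turned with 1 total per library, where it was -0.41 (adjusted p = 0.0151).

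MNT (chr17:2384061-2401060, minus strand) is the broadly expressed repressor that binds both MAX and MLX. It was the lowest member, with 161, 212 and 221 normalised reads with Pladienolide B, 523, 406 and 424 with Indisulam, and 400, 449 and 420 with DMSO. These rest on 160 to 571 sequenced reads per library, the thinnest support in the network. The Pladienolide B libraries lay below all others, and the Indisulam and DMSO libraries overlapped. The mean was 2.14-fold lower with Pladienolide B than with DMSO (log2 -1.11, 95% interval -1.42 to -0.79, adjusted p = 1.253e-05), and -1.19 against Indisulam on the log2 scale (adjusted p = 6.025e-06). With Indisulam against DMSO it was 0.08 (95% interval -0.23 to 0.40, adjusted p = 0.717).

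MLX (chr17:42567072-42573239, plus strand) is the partner of the glucose-responsive factors. It had 1050, 1085 and 968 normalised reads with Pladienolide B, 1995, 2180 and 2157 with Indisulam, and 2807, 2826 and 2798 with DMSO. As for MXD3, the 3 groups formed 3 separate ranges, and the DMSO libraries agreed to within 0.514% (coefficient of variation). The mean was 2.72-fold lower with Pladienolide B than with DMSO (log2 -1.44, 95% interval -1.60 to -1.29, adjusted p = 8.792e-10). With Indisulam it was 1.33-fold lower than with DMSO (log2 -0.41, 95% interval -0.57 to -0.26, adjusted p = 0.000888), and the log2 change between the drugs was -1.03 (adjusted p = 2.168e-08).

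**Figure D2:**
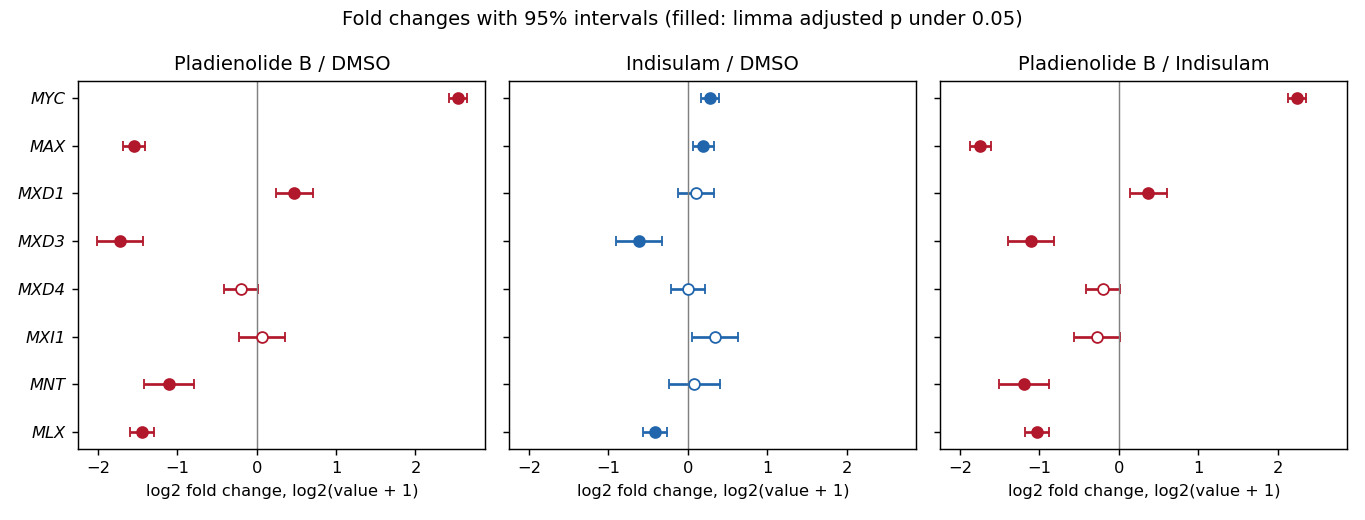
Log2 fold change on the log2(value + 1) scale (x axis) of the 8 network genes in 3 comparisons, as limma estimates with 95% intervals; filled points passed the adjusted threshold. In the Pladienolide B panels MYC lies near 2.5 and 2.3 and MAX, MXD3, MNT and MLX lie below -1, while in the Indisulam panel no gene is beyond 0.61 in size.

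Between the drugs, with Pladienolide B against Indisulam, the same split appeared as against DMSO: MYC and MXD1 were called higher, MAX, MXD3, MNT and MLX lower, and MXD4 and MXI1 were not called. The background in that comparison was 70.3% of genes called, 34.7% higher and 35.6% lower, and 71.8% of genes were free of overlap. The comparison shares its Pladienolide B libraries with the one against DMSO, so the 2 results are not independent. It also sets 6 h against 12 h, so drug and time cannot be told apart here either. MXD4 was -0.20 (adjusted p = 0.0902) and MXI1 was -0.28 (adjusted p = 0.0831). MXD4 passed with TMM scaling (-0.24, adjusted p = 0.0475), with 1 total per library (-0.62, adjusted p = 6.255e-05) and without Pladienolide B replicate 2 (-0.28, adjusted p = 0.0243). MXI1 passed with 1 total per library (-0.70, adjusted p = 0.000453) and without Pladienolide B replicate 1 (-0.40, adjusted p = 0.0216).

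To compare levels between genes, normalised reads were divided by the length of the longest consensus coding (CCDS) transcript in GENCODE 29, from 2141 bases for MAX to 5587 bases for MXD1. Levels per kilobase depend on that choice of transcript. The row of MYC ends at base 127742951, past the GENCODE end of the gene at 127741434, while 2366 bases were used as its length. Its level per kilobase, and ratios built on that level, may be overstated to that extent. With Pladienolide B the order was MYC at 14039, MAX at 832, MXD4 at 559, MXI1 at 494, MLX at 400, MXD3 at 350, MXD1 at 262 and MNT at 39.5 normalised reads per kilobase. Within it the neighbours MXD4 and MXI1, MXI1 and MLX, and MLX and MXD3 overlapped between libraries. With Indisulam the order was MYC at 2948, MAX at 2788, MLX at 816, MXD3 at 753, MXD4 at 640, MXI1 at 593, MXD1 at 203 and MNT at 90.3, and the libraries of the 4 genes in the middle overlapped from one to the next. With DMSO it was MAX at 2434, MYC at 2422, MXD3 at 1156, MLX at 1087, MXD4 at 639, MXI1 at 472, MXD1 at 190 and MNT at 84.7, where MAX overlapped MYC and MXD3 overlapped MLX. By these lengths MYC and MAX were level with each other in DMSO cells, and MXD3 and MLX held lower places with Pladienolide B than with DMSO. The levels of MXD3 and MLX carry a further limit from overlapping genes, given below.

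A ratio of genes within a library does not depend on the scaling of libraries. The ratio of MYC to MAX per kilobase was 18.5, 17.1 and 15.2 with Pladienolide B, 1.06, 1.06 and 1.04 with Indisulam, and 0.981, 1.02 and 0.983 with DMSO. The mean ratio was 16.9 ± 1.66 with Pladienolide B, beside 1.06 ± 0.011 with Indisulam and 0.995 ± 0.0226 with DMSO (SD, n = 3 each). The 7 ratios of MYC to another member share MYC and are not independent. With Pladienolide B against DMSO, MYC rose by 2.53 on the log2 scale and MXD1, the only other member called higher, by 0.47. All 7 ratios were higher with Pladienolide B than with DMSO in every library. The rise ran from 4.17-fold for MYC over MXD1 to 19.1-fold for MYC over MXD3, and every exact permutation test (two-sided) gave p = 0.1, the minimum that 3 libraries against 3 can reach. With Indisulam against DMSO the ratios over MXD3 and MLX were 1.86-fold and 1.62-fold higher without overlap (exact permutation p = 0.1 each). Those over MAX and MXD4 were 1.06-fold and 1.22-fold higher without overlap (exact permutation p = 0.1 each), and those over MXD1, MXI1 and MNT overlapped (exact permutation p = 0.2, 0.7 and 0.3).

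**Figure D3:**
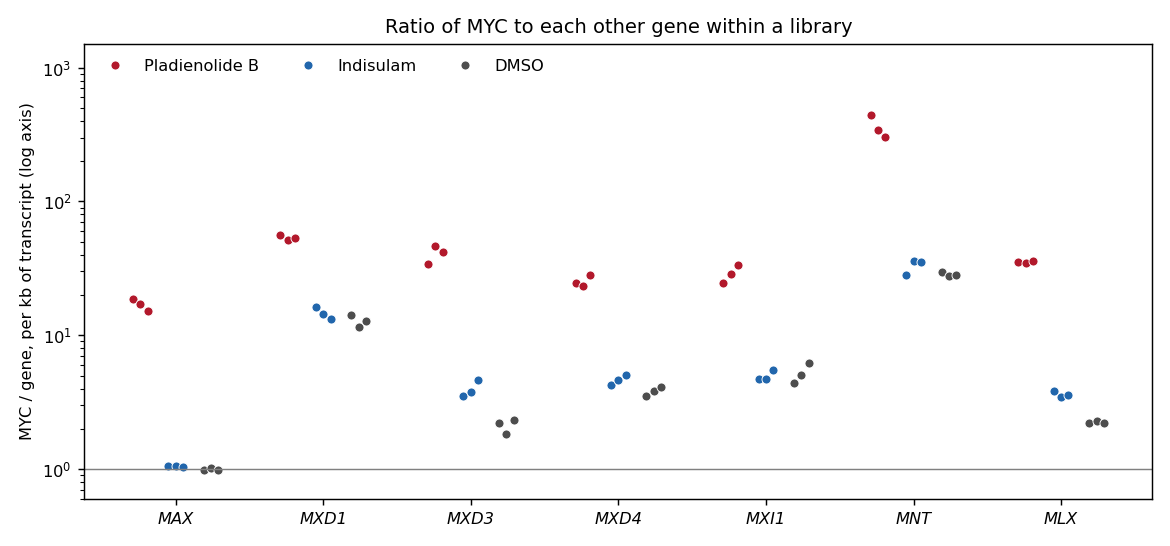
Ratio of MYC to each other network gene within a library (log axis, reads per kilobase of transcript), with Pladienolide B left, Indisulam in the middle and DMSO right for each gene; each point is 1 library and the line marks a ratio of 1. The Pladienolide B points lie above the other 6 for every gene, and the ratio to MAX is near 1 in the Indisulam and DMSO libraries and 15.2 to 18.5 with Pladienolide B.

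Summed over MXD1, MXD3, MXD4, MXI1 and MNT, the MAX-binding repressors reached 1705 ± 192 normalised reads per kilobase with Pladienolide B, 2280 ± 177 with Indisulam and 2542 ± 282 with DMSO (SD, n = 3 each). The highest Pladienolide B library, at 1861, lay below the lowest of the others, at 2090 with Indisulam and 2262 with DMSO. The make-up of the sum differed between groups. MXD3 supplied 20.6 ± 2.51% with Pladienolide B, 32.9 ± 1.82% with Indisulam and 45.4 ± 3.09% with DMSO. MXI1 supplied 28.8 ± 2.03%, 26.0 ± 0.585% and 18.6 ± 2.31% in the same groups, and MXD1 supplied 15.5 ± 1.61%, 9.01 ± 1.71% and 7.48 ± 0.842%. MYC stood at 8.28 ± 0.647 times the repressor sum with Pladienolide B, 1.30 ± 0.113 times with Indisulam and 0.959 ± 0.0847 times with DMSO. These are ratios of RNA per kilobase, with the limit on the length of MYC given above, and say nothing of protein or of dimers. The sum, its shares and the ratio to MYC also rest on MXD3, whose level per kilobase is uncertain. Of the 2269 bases used for MXD3, 1450 lie in an overlap with PRELID1, as given below.

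**Figure D4:**
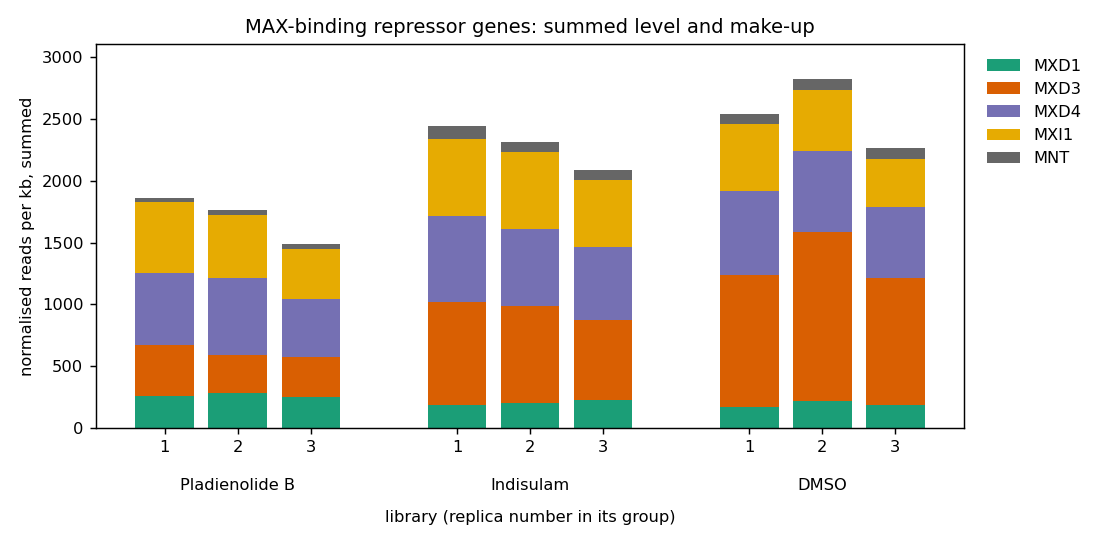
Normalised reads per kilobase (y axis, from 0) of the 5 MAX-binding repressor genes, stacked for each of the 9 libraries, with Pladienolide B left, Indisulam in the middle and DMSO right. The stacks are lowest with Pladienolide B, and the MXD3 layer is widest in DMSO (45.4% of the sum on average, 20.6% with Pladienolide B).

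The genes differ in structure. In its longest CCDS transcript MYC has 2 introns, the fewest in the network; MAX, MXD1, MXD3, MXD4, MXI1 and MNT have 5 each and MLX has 7. Over all CCDS transcripts the number was 3 to 5 for MAX, 4 to 5 for MXD1 and MXI1, 5 to 6 for MXD3 and 6 to 7 for MLX. With Pladienolide B the genes counted here at 5 introns differed among themselves: MXD1 rose, MAX, MXD3 and MNT fell, and MXD4 and MXI1 did not pass the test. The part of intron number in these changes was not tested.

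The deposited table also lists features that lie inside or across these genes. Within intron 4 of MNT an unnamed feature (GSHG0018739, chr17:2389278-2392078) lies wholly inside an exon of a GENCODE MNT transcript of the retained-intron class. It had 740.5, 1105 and 886.6 normalised reads with Pladienolide B, 297.7, 358.9 and 293.6 with Indisulam, and 298.3, 287.2 and 234.4 with DMSO. It was higher in every Pladienolide B library than in any other, whereas MNT itself was lower in those libraries. The log2 fold change was 1.72 with Pladienolide B against DMSO (standard error 0.15, adjusted p = 2.467e-07) and 0.21 with Indisulam (adjusted p = 0.335). How the counting treated strand is not given in the sources used here, so reads of the host gene and of the inner feature cannot be assigned with certainty.

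**Figure D5:**
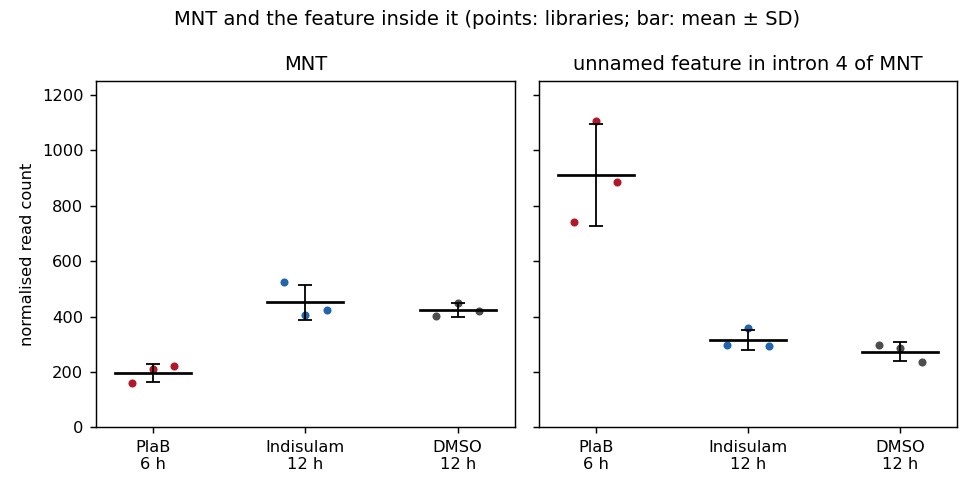
Normalised read count (y axis, from 0) of MNT and of the unnamed feature in intron 4 of MNT, with Pladienolide B (PlaB) left, Indisulam in the middle and DMSO right; points are libraries and bars give the mean ± SD of 3. With Pladienolide B the feature is at 740.5 to 1105 while MNT is at 161 to 221.

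Inside MAX an unnamed feature (GSHG0012248, chr14:65009671-65011431), which overlaps no annotated MAX exon, had 40.1, 20.6 and 25.4 normalised reads with Pladienolide B and was at 0 in all 6 Indisulam and DMSO libraries. Its mean was below 10, so it was not tested. Other overlaps concern what the member rows count. MXD3 shares 1451 bases at its 3′ side with PRELID1, a gene of mitochondrial lipid transfer with a mean of 23796 normalised reads that rose with Pladienolide B (log2 0.86, adjusted p = 8.065e-09) while MXD3 fell. Of the 2269 bases used as the length of MXD3, 1450 lie in that overlap, and the level of MXD3 per kilobase is uncertain to that extent. MLX shares 930 bases with PSMC3IP, which was called lower with Pladienolide B (log2 -0.68, adjusted p = 2.64e-05) and not called with Indisulam (0.20, adjusted p = 0.154). All 930 are among the 2586 bases used as the length of MLX, and its level per kilobase is uncertain to that extent. MAX lies across 56551 bases of FNTB, of which 0 fall in exons of the longest CCDS transcript of MAX and 111 in any annotated MAX exon. FNTB had a log2 change of 0.04 with Pladienolide B (adjusted p = 0.713) and, like MAX, was called higher with Indisulam (0.35, adjusted p = 0.0111). How reads in these overlaps were shared out was not tested.

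Of 4 other genes of the network, MYCN had 0 reads in all libraries. MGA, a large MAX partner that represses germline genes, averaged 2622 ± 412 normalised reads with Pladienolide B, 6307 ± 515 with Indisulam and 5145 ± 301 with DMSO. It fell with Pladienolide B (log2 -0.98, adjusted p = 7.847e-07) and rose with Indisulam (0.29, adjusted p = 0.0423). The rise with Indisulam was not called with TMM scaling or 1 total per library, nor on leaving out any 1 of 5 libraries (all but Indisulam replicate 2 of the 6 compared), with adjusted p up to 0.158. MYCL, a MYC paralogue, averaged 26.2 ± 2.98, 66.3 ± 17.7 and 62.5 ± 4.11 in the same order of groups and fell with Pladienolide B (log2 -1.23, adjusted p = 0.000848). MLXIPL, the ChREBP gene, averaged 10.7 ± 6.4, 31.5 ± 12.2 and 42.5 ± 10.4 and also fell (log2 -2.00, adjusted p = 0.00126), at levels near the filter.

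Genes that work with the network were counted in lists chosen with earlier results of these data known. These counts are to be read beside the shares of all genes tested, which were 34.3% higher and 35.5% lower with Pladienolide B, and 14.5% higher and 12.4% lower with Indisulam. The median log2 change of all genes was -0.01 and 0.05 in these comparisons. Among 18 MYC cofactors, 3 rose and 14 fell with Pladienolide B (all genes: 34.3% and 35.5%), with a median log2 change of -0.55 beside -0.01 over all genes. RUVBL2, an ATPase of chromatin remodellers, rose by 0.39 and ACTL6A, a subunit of several remodelling complexes, by 0.34, both calls being lost with 1 total per library and with quantile normalisation. BRD8 and KAT5, subunits of the NuA4 acetyltransferase, were at -1.28 and -1.21. With Indisulam 1 rose (ACTL6A, 0.23) and 6 fell, with HCFC1, a MYC-binding chromatin cofactor, at -0.64 and EP400, the NuA4 ATPase, at -0.50. With 1 total per library 0 cofactors rose and 17 fell with Pladienolide B, beside 2733 and 9086 of all 16846 genes tested. Among 18 genes of SIN3 and NCOR corepressors, through which MXD proteins and MNT act, 7 rose and 6 fell with Pladienolide B, which lies near the shares over all genes (34.3% and 35.5%). SAP18 (0.91) and HDAC1 (0.71) rose most, and SIN3B (-1.57) fell most. The median was -0.12, but 0.09 with quantile normalisation (6 higher, 7 lower), beside -0.01 and 0.05 over all genes. With TMM scaling it was -0.20 (6 higher, 8 lower), beside -0.09 over all genes. With 1 total per library it was -0.59 (2 higher, 14 lower), beside -0.48 over all genes. With Indisulam 3 rose, led by SUDS3 (0.53) and ARID4B (0.45), and 3 fell, led by HDAC3 (-0.38).

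Among 20 genes that control MYC protein by ubiquitination or phosphorylation, 5 rose and 13 fell with Pladienolide B (all genes: 34.3% and 35.5%), with a median of -0.44 beside -0.01 over all genes. With quantile normalisation that median was -0.18 (6 higher, 10 lower), beside 0.05 over all genes. With TMM scaling it was -0.52 (5 higher, 13 lower), beside -0.09. With 1 total per library it was -0.91 (3 higher, 15 lower), beside -0.48. The ubiquitin ligase TRIM32 (1.15) and SET, an inhibitor of the phosphatase PP2A (0.69), rose most. BTRC, an F-box protein of an SCF ligase (-2.33), and the scaffold AXIN1 (-1.87) fell most. With Indisulam 1 rose, the kinase GSK3B (0.33), and 4 fell, led by CIP2A, a PP2A inhibitor (-0.62), and the deubiquitinase USP7 (-0.48). Of 18 tested genes whose products bind MYC mRNA or the DNA of its locus, or that are transcribed from the locus, 11 rose and 6 fell with Pladienolide B (all genes: 34.3% and 35.5%). The AU-rich element binding protein ZFP36L1 (1.40) and PCBP1, a poly(C)-binding protein (1.15), rose most, while IGF2BP3, which stabilises bound mRNAs (-1.25), and ZFP36, a paralogue of ZFP36L1 (-1.15), fell most. The median of that list was 0.37, but -0.10 with 1 total per library, where 7 rose and 9 fell. In that setting the median of all 16846 genes tested was -0.48, and 2733 were called higher and 9086 lower. With Indisulam 5 rose, led by TIA1 (0.98) and HNRNPC (0.33), and IGF2BP3 alone fell (-0.79).

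Among 37 classic MYC-activated genes, 22 rose and 8 fell with Pladienolide B (all genes: 34.3% and 35.5%), with a median log2 change of 0.35 beside -0.01 over all genes. NME1, a nucleoside diphosphate kinase, rose by 0.97, and CCNB1IP1, a ubiquitin ligase of meiotic crossing-over whose place in this list is doubtful, by 1.07. UBTF, a factor of RNA polymerase I (-1.30), and the nucleolar GTPase GNL3 (-1.11) fell most. The sign of the list's median depended on the scaling. It was 0.27 with TMM scaling (21 higher, 9 lower), beside -0.09 over all genes. With quantile normalisation it was -0.04 (10 higher, 12 lower), beside 0.05 over all genes. With 1 total per library it was -0.12 (9 higher, 17 lower), beside -0.48 over all genes. In the same order, all genes called numbered 5229 higher and 6458 lower, 6045 and 5429, and 2733 and 9086, of 16846 tested. With Indisulam 2 rose, CCNB1IP1 (0.46) and PPAT, an enzyme of purine synthesis (0.28), and 6 fell, led by CAD, of pyrimidine synthesis (-0.57), and the cell-cycle factor E2F1 (-0.33). Among 11 tested genes known to be repressed by MYC, 5 rose and 2 fell with Pladienolide B (all genes: 34.3% and 35.5%). GADD45A (1.87) and the CDK inhibitor CDKN1B (1.47) rose most, and the CDK inhibitors CDKN1A (-2.15) and CDKN1C (-1.19) fell. The balance of that list depended on the scaling. Its median was 0.04, -0.04 with TMM scaling (3 higher, 4 lower) and -0.42 with 1 total per library (2 higher, 6 lower). Over all genes the medians were -0.01, -0.09 and -0.48. With quantile normalisation the list's median was 0.10 (3 higher, 4 lower), beside 0.05 over all genes. With Indisulam GADD45A (0.57) and KLF6 (0.42) rose and CDKN1A fell (-0.26). Of 10 targets of MondoA and MLX, 5 rose and 2 fell with Pladienolide B (all genes: 34.3% and 35.5%). The arrestin-family genes TXNIP (1.12) and ARRDC3 (0.94) rose most. The 2 that fell were PFKFB3 (-1.14) and HK2 (-0.64), both of glycolysis. The median was 0.39, but -0.08 with 1 total per library, beside -0.01 and -0.48 over all genes. With Indisulam HK2 rose (0.24) and the retinol dehydrogenase RDH5 fell (-1.24). The rises of GSK3B, PPAT and HK2 with Indisulam were not called with TMM scaling or 1 total per library. These 3 calls, and those of E2F1, CDKN1A and RDH5 with Indisulam, were also lost on leaving out 1 of 2 to 6 libraries each, with adjusted p up to 0.163. All changes named in these lists are log2 fold changes against DMSO with adjusted p under 0.05 in the fit over all genes.

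Among 11719 genes with a symbol and a mean of at least 100, likeness of profile was measured as the root mean square difference of log2(value + 1) over the 9 libraries, each gene centred on its DMSO mean. The genes closest to MYC were CCN1, a secreted matricellular protein (0.124), CREBZF (0.151) and LINC00115 (0.154). CCN1 averaged 244300 ± 10630 normalised reads with Pladienolide B, 59755 ± 3914 with Indisulam and 43666 ± 2133 with DMSO. The closest gene to MAX was ZNF558 (0.0542), to MXD1 LHFPL6 (0.0751), to MXD3 CDC25C (0.141), to MXD4 MED25 (0.0591), to MXI1 WBP2 (0.107), to MNT ACVR1B (0.0792) and to MLX OPA3 (0.0627). This is a description of profiles over 3 groups and carries no test.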

How the data were processed

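Per the labels' protocols, mRNA of MDA-MB-231 cells was sequenced in 9 libraries from a stranded kit. STAR 2.7.5a, SAMtools, Picard, FastQC and DESeq2 are listed in the submitters' processing notes, with build hg38. For counting, neither tool nor strand is given in the sources used here. Each deposited signal is a feature's read count scaled with the DESeq2 size factor of its library, per the submitters' processing notes and the values. In every library 100% of values were whole multiples of the value of 1 read (tolerance 0.01), so whole reads were recovered. Values were tested with limma 3.58.1 (R 4.3.3) on log2(value + 1), which understates changes of low genes, with all 9 libraries in 1 fit and a mean trend. The 16846 features with a mean of at least 10 were tested, and p-values were adjusted by Benjamini-Hochberg over all of them at 0.05. Ratios of MYC to each gene were compared by exact permutation. The fit was tested on simulated data. Replicates were compared by chi-square (lowest value per gene 8.63), and none agreed within sampling noise. A deposited value of 2.48 to 3.87 corresponds to 3 reads, the limit that 0 reads allows; this covers counting error only. Lengths and introns come from GENCODE 29, and the choice of transcript was made after seeing the data. The members and lists were chosen with earlier results of these data known. From each list the text names up to 2 called genes per direction and drug with the largest change against DMSO, besides all members and other network genes, and the genes most like each member. TRRAP, RUVBL1, FBL, RCC1 and BOP1 of these lists were not analysed here. Some genes that the rule names are left out of the text. Alternatives comprised other scalings, pseudocounts and filters, edgeR 4.0.16 and DESeq2 1.42.0 on whole reads, fits on the groups compared, a replicate block, and leaving out each library.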

Additional observations from a re-analysis of the deposited data

How the results depend on the processing

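Of 480 member fold changes under alternatives, 444 kept their direction and their side of the threshold. With 1 total per library, members called higher numbered 1 with Pladienolide B against DMSO and 1 against Indisulam. All genes called higher numbered 2733 (9086 lower) and 3013 in these comparisons. Against DMSO the share of all calls that were higher was 23.1%, beside 49.2% in the reported fit. With Indisulam 1 member was called higher with TMM scaling and 1 with equal totals, and the share of all calls that were higher was 42.9% and 40.3%, beside 53.8%. Leaving out 1 library gave 1 to 3 such members and 1565 to 2982 genes higher with Indisulam. Small uncalled changes turned sign. MXI1 with Pladienolide B was -0.017 with TMM scaling, -0.41 with equal totals and -0.073 to 0.21 on leaving out 1 library. MXD4 with Indisulam was -0.041 with TMM scaling, -0.052 with equal totals, -0.016 with quantile normalisation and -0.064 to 0.054 on leaving out 1 library, and MNT was -0.027 to 0.16. A called change turned sign as well: MXD1 between the drugs was called higher in the reported fit (0.37). With equal totals it was -0.048 and was not called. The log2 ratio of MYC to MXI1 with Indisulam was -0.06, and -0.17 to 0.068 on leaving out 1 library; the causes were not tested. Deviations of same-numbered libraries had correlations of 0.003 to 0.128, beside -0.124 to 0.045 for libraries of different numbers. The labels do not say that a number marks a shared culture, so the reported fit used no block. With the replicate block, members called lower with Pladienolide B against DMSO numbered 5 (MXD4 added, adjusted p = 0.0106). All genes called lower in that fit numbered 6248, beside 5976 in the reported fit. Against Indisulam, members called lower with the block numbered 6 (MXD4 and MXI1 added). All genes called lower in that comparison ranged from 5411 to 8496 over the alternatives, beside 5997 in the reported fit. Members called higher with Indisulam against DMSO numbered 3 with the block (MXI1 added, adjusted p = 0.00132). All genes called higher there ranged from 1565 to 3548 over the alternatives, beside 2437 in the reported fit. MNT, at 160 to 571 reads, was the member most limited by depth.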
